A study of Saccharomyces cerevisiae with 9 samples.

Results

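The charged fraction of tRNA, the share of a tRNA that carries its amino acid, was compared between Not1 depleted and wild-type yeast cells for every amino acid on the tRNA microarrays. The comparison used the 6 charging arrays of the 9 arrays in the series, with 3 arrays of Not1 depleted cells and 3 of the wild-type. Spots were averaged by probe name for 64 tRNA probes, of which 40 had an unprefixed name and 24 a name with the prefix m. The probes were then averaged by the amino acid in the name, which gave 20 unprefixed and 20 m-prefixed groups, or 40 groups in all. For each array, RNA of a culture was split. An aliquot was treated with periodate, which destroys the ends of tRNAs without an amino acid, and what remained was labelled with Cy3 as charged tRNA, while the other aliquot was labelled with an Atto dye as total tRNA.

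Not1 depleted cells carried not1::NOT1-AID-Myc6-NATMX4, in which Not1 has an auxin-inducible degron, a tag that the plant protein TIR1 recognises in the presence of auxin so that the tagged protein is degraded. The wild-type strain had no tag on Not1. Strains of both groups were labelled MATa, with ura3-1::pADH1-OsTIR1-URA3 (rice TIR1 driven by the ADH1 promoter), a leu2 marker allele, trp1-1 and can1-100, and also HIS3,15 and ADE2. By the sample records, cultures of both strains received auxin (1 mM, 15 min), whereas the methods give the solvent ethanol to the control. The strain numbers of the records and of the paper also differ, as do mating type, Myc tag and marker alleles. Where the records have MATa, HIS3,15 and ADE2, the paper lists MATα, his3,15 and ade2. Cells grew in glucose rich medium, each replicate from its own culture, and no measure of Not1 protein or mRNA is on these arrays.

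An aminoacyl-tRNA synthetase joins each amino acid to the 3′ end of its tRNAs, and the charged tRNA is then brought to the ribosome to be matched to a codon through its anticodon. Isoacceptors are tRNAs with different anticodons for the same amino acid. Synthetases fall into class I and class II by the fold of their catalytic domain, and yeast mitochondria translate their own mRNAs with a separate set of tRNAs encoded in mitochondrial DNA. Not1 is the scaffold of the Ccr4-Not complex, which acts in mRNA decay and translation.

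Sequences are given here for Tyr, one of the groups with the lowest charged fraction on every array, and for Gln, Cys, Lys, mCys and mTrp, which are 5 of the 6 groups whose arrays did not overlap between the strains on a scale described later. The reference annotation of the R64 build in RefSeq holds 275 nuclear and 24 mitochondrial tRNA genes, and for all 20 amino acids the number of mitochondrial genes equalled the number of m-prefixed probes. The deposited tables do not pair probes with genes, so each sequence stands for the amino acid and not for a probe. Sequences are those of the genes as annotated, 5′ to 3′, with introns removed, and the anticodon is in capitals. No CCA end was added, and whether the annotated ends are those of the mature tRNAs was not checked.
tRNA-Gln, anticodon TTG, YNCC0010C, chrIII:168301-168372, minus strand: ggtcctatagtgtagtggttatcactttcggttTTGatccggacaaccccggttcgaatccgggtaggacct
tRNA-Gln, anticodon CTG, CDC65, chrXIII:808246-808317, minus strand: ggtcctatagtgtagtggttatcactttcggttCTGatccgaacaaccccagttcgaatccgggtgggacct
tRNA-Cys, anticodon GCA, YNCB0017C, chrII:643007-643078, minus strand: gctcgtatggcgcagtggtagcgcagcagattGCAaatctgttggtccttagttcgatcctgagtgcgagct
tRNA-Lys, anticodon CTT, YNCC0009C, chrIII:151284-151356, minus strand: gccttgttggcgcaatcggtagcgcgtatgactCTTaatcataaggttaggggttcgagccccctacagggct
tRNA-Lys, anticodon TTT, YNCD0003W, chrIV:359577-359672, plus strand: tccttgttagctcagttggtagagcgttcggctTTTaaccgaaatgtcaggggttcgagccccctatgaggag
tRNA-Tyr, anticodon GTA, SUP2, chrIV:946312-946400, plus strand: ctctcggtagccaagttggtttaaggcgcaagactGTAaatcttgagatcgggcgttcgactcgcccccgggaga
mitochondrial tRNA-Trp, anticodon TCA, tW(UCA)Q, mitochondrion 9374-9447, plus strand: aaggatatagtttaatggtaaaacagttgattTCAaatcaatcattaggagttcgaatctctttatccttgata
mitochondrial tRNA-Cys, anticodon GCA, tC(GCA)Q, mitochondrion 64415-64490, plus strand: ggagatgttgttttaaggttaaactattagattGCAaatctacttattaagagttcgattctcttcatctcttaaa

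Of the 10 nuclear tRNA-Gln genes, 9 had the anticodon TTG and 1 had CTG, and the sequences shown differed at 4 of 72 positions. The array had 1 probe for them, Gln1y, and which of the sequences it captured was not given. The sequences of tRNA-Lys shown differed at 20 of 73 positions, and the array had the probes Lys1y and Lys2y. All 8 tRNA-Tyr genes and all 4 nuclear tRNA-Cys genes gave the sequence shown, with a single probe each. The mitochondrial tRNA-Trp has the anticodon TCA, by which yeast mitochondria read UGA as tryptophan.

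With the normexp background correction, no amino acid group was called higher or lower in charged fraction in Not1 depleted cells than in the wild-type. Plain background subtraction called mArg, mCys, mMet and mTrp lower (limma adjusted p 0.0065 to 0.035). Its standard error of 0.33 was shared by all groups, and the median change over all groups was -0.45. On a scale relative to the array, described later, plain subtraction called 0 groups. With each array scaled to its spike-in standards, limma called 0 of the 40 groups lower and 0 higher at a Benjamini-Hochberg adjusted p of 0.05 (0% of groups called), and 0 at an unadjusted p of 0.05. The log2 changes lay between -0.45 for mTrp and 0.75 for Gln, with a standard error of 0.43 for every group and an adjusted p of 0.994 for every group. In all 40 groups the arrays of the strains overlapped. There were 22 groups above 0 and 18 below, a split that turned on the processing, with 1 above and 39 below under plain background subtraction, 5 and 35 with an offset of 0, 8 and 32 with the mean foreground, 13 and 27 both with no background correction and with only spots lit in both channels, 28 and 12 without the standard Ser3h, and 2 and 38 without wild-type replicate 3. The standard error was a single value that the fit shared over all groups. The SD between arrays of one strain ran from 0.097 (mGln, Not1 depleted) to 0.87 (Ser, wild-type). The half-width of the 95% interval, which is not adjusted for the 40 groups, was 0.85 on the log2 scale, or 1.80-fold. This interval takes the groups as independent, though a shift of a whole array acts on all of them, so it may be too narrow. Changes under that size could not be told from 0 for a single amino acid. A change in 1 amino acid alone would have to be larger still to be called after adjustment. The ratios are averages over the cells of a culture, so that a change in all cells and a larger one in some cells cannot be told apart.

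The arrays differed more from each other than the strains did. The median charged fraction over the 64 probes was 101.8%, 64.9% and 77.5% on the Not1 depleted arrays, against 106.7%, 99.1% and 51.8% on the wild-type arrays. It averaged 81.4 ± 18.8% in Not1 depleted cells and 85.8 ± 29.7% in the wild-type (SD, n = 3 each, two-sided exact permutation test p = 0.9, where 0.1 is the smallest p that 3 against 3 arrays can give). The highest and the lowest array both belonged to the wild-type. Without wild-type replicate 3 the difference in the median was -21.5 percentage points, and without wild-type replicate 1 it was 5.95.

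A charged fraction of 100% here is the Cy3 to Atto ratio of the standards, in vitro made tRNAs added in equal amounts (E. coli Lys2 and Tyr2, human His1 and Ser3), and not a measured saturation. Of the 384 probe values, 119 were above 100%. On all 6 arrays the standard Ser3h had the lowest ratio, between -0.29 and 0.25 in log2, whereas the lowest of the other 3 standards was at 1.40 or above. The scaling value, the median over all standard spots, was 1.20, 0.96 and 1.69 on the Not1 depleted arrays and 0.79, 1.5 and 1.66 on the wild-type arrays. On 4 arrays it fell between Ser3h and the others, and on replicate 3 of each strain it stood near His1h. With Ser3h left out of the scaling the standard error fell to between 0.21 and 0.30, and again 0 groups were called.

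**Figure D1:**
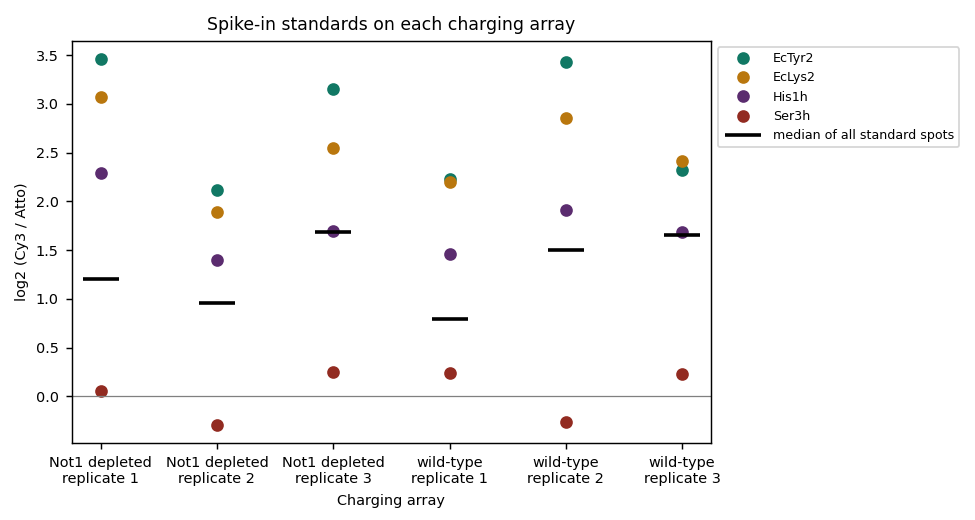
Log2 ratio of Cy3 to Atto for each spike-in standard (coloured points) on the 3 Not1 depleted and the 3 wild-type charging arrays, with the median over all standard spots as a black bar. Ser3h lies lowest on every array, and the bars, which scale the arrays, range from 0.79 to 1.69.

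At its ends the order of the amino acids was steadier than their level. Tyr and Glu had the lowest charged fractions of all 40 groups on each of the 6 arrays. The Glu fraction was 18.6 ± 5.0% in Not1 depleted cells and 21.05 ± 3.1% in the wild-type, and that of Tyr was 16.2 ± 3.8% and 22.3 ± 6.7%. The m-prefixed Pro group had rank 3 from the bottom on 5 arrays and rank 6 on wild-type replicate 3. At the top, mLys ranked between 38 and 40 of 40, with 160.6 ± 53.6% in Not1 depleted cells and 147.0 ± 62.4% in the wild-type. Between the ends some ranks moved widely, from 18 to 39 for Met, 17 to 38 for mTrp and 4 to 23 for Gln. Others moved less, such as mThr from 10 to 15.

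Brightness in the Atto channel moved in part with this order. In the Atto channel the median foreground of Tyr spots was between 17130 and 56281, that of Glu spots between 15836.5 and 38077 and that of mPro spots between 3264 and 26155. His and mHis, with ranks from 4 to 12 and from 5 to 16, were dim by contrast, at 159 to 416 and 130 to 284. Across the 64 probes within an array, the scaled log2 ratio and the log2 Atto intensity correlated between -0.34 and -0.61. This is a description across probes, which are not independent, and the Atto intensity is in both measures. With the log2 Cy3 intensity, which is also part of the ratio, the correlation lay between -0.43 and 0.16. The part of brightness in the low charged fraction of Tyr, Glu and mPro was not tested.

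**Figure D2:**
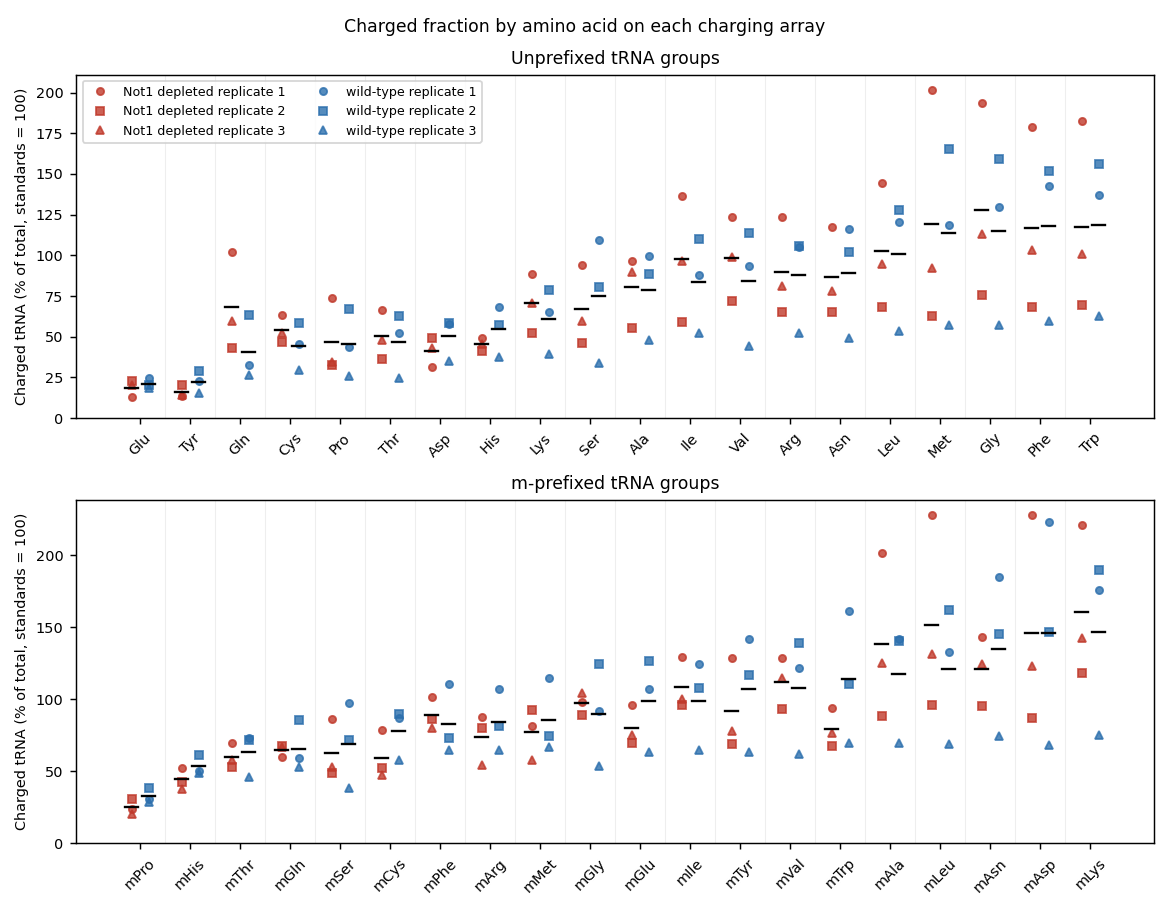
Charged fraction (% of total, with the standards as 100) of each unprefixed (top) and m-prefixed (bottom) amino acid group, ordered by the wild-type mean. Points are single arrays, Not1 depleted left in red and wild-type right in blue, and black bars are means of 3 arrays; the points of the strains overlap in every group.

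The 12 amino acid groups that follow were described on every array, by a rule on overlap and size of change that included Ser and Ala. The glutamine group had the largest change of all groups. Glutamine is charged to its cytosolic tRNA by a class I synthetase, and in fungal mitochondria through a glutamate intermediate. The charged fraction of Gln was 102.1%, 43.2% and 59.5% in the 3 Not1 depleted replicates, against 32.9%, 63.1% and 26.4% in the wild-type replicates. Wild-type replicate 2 exceeded 2 of the Not1 depleted arrays, so the strains overlapped. The means were 68.3 ± 30.4% and 40.8 ± 19.6% (SD, n = 3 each, exact permutation test p = 0.3), a log2 change of 0.75 ± 0.43 (SE) with a limma adjusted p of 0.994. The m-prefixed Gln group had a log2 change of 0.0034, with 64.7 ± 4.3% in Not1 depleted cells and 65.9 ± 17.4% in the wild-type.

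To ask whether one amino acid moved against the others, each log2 ratio was set relative to the median over the 64 probes of its own array. The mean SD between arrays of one strain then was 0.26, against 0.49 with the standards. No group was called lower or higher (0% each, lowest adjusted p 0.541), and 1 group was lower and 1 higher at an unadjusted p of 0.05 (2.5% each). In 6 of the 40 groups (15%) the arrays of the strains did not overlap, with 4 higher (10%) and 2 lower (5%) in Not1 depleted cells. These were Gln, Cys, Lys and mIle above the wild-type, and mCys and mTrp below it. The two-sided exact permutation p was 0.1 for each, the smallest that this design allows. With arrays labelled at random, a group would be without overlap with this same probability of 0.1.

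Relative to its array, Gln stood at 0.0045, -0.59 and -0.38 in log2 in the Not1 depleted replicates, against -1.70, -0.65 and -0.97 in the wild-type replicates. The strains did not overlap, with 0.064 between the lowest Not1 depleted and the highest wild-type array. The log2 change was 0.79 ± 0.27 (SE), with a limma p of 0.014 and an adjusted p of 0.541. Among the 40 groups Gln ranked 23, 8 and 15 from the bottom on the Not1 depleted arrays and 4, 9 and 5 on the wild-type arrays. The result depended on single arrays: without Not1 depleted replicate 2 it was called higher (0.92, adjusted p 0.014), and without wild-type replicate 1 the change was 0.49. In the separate channels, relative to the standards, the log2 change of Gln was -0.52 for Cy3 and -0.79 for Atto, with standard errors of 1.00 and 0.60.

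The change of cysteine was above 0 in the unprefixed and below 0 in the m-prefixed group, and neither passed the test with the normexp correction. Under plain background subtraction both were below 0, Cys at -0.11 and mCys at -1.25 (adjusted p 0.0065, called). Cysteine is a class I amino acid and the sulphur donor for iron-sulphur clusters. Unprefixed Cys was charged to 63.6%, 46.7% and 52.3% in Not1 depleted replicates, against 45.4%, 58.7% and 29.7% in the wild-type (means 54.2 ± 8.6% and 44.6 ± 14.6%, exact p = 0.4). Relative to the array it was at -0.68, -0.48 and -0.57 in Not1 depleted cells, against -1.23, -0.75 and -0.80 in the wild-type, a change of 0.36 ± 0.20 (SE, limma adjusted p 0.764). All Not1 depleted arrays were above all wild-type arrays on this scale.

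The mCys group was at 78.5%, 52.1% and 47.2% in Not1 depleted cells, against 87.1%, 90.1% and 57.6% in the wild-type (exact p = 0.2). Its values relative to the array were -0.37, -0.32 and -0.71 in Not1 depleted replicates and -0.29, -0.14 and 0.16 in the wild-type, a change of -0.38 ± 0.20 (SE, adjusted p 0.764). The highest Not1 depleted value and the lowest wild-type value were 0.023 apart. These spots were dim, with a median Atto foreground between 57 and 148.5, or 1.73 to 4.26 times the local background. The background correction moved the change, which was -0.41 against the standards and -0.38 relative to the array with the normexp correction and -1.25 and -0.76 with plain subtraction. Whether the change differed between Cys and mCys was not tested.

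Lysine, a class II amino acid with the probes Lys1y and Lys2y, was charged to 88.8%, 52.1% and 70.7% in Not1 depleted replicates, against 65.1%, 78.5% and 39.1% in the wild-type. The percent values overlapped, and the log2 change was 0.24 ± 0.43 (SE, adjusted p 0.994). Relative to the array, Lys was at -0.20, -0.32 and -0.13 in Not1 depleted replicates and at -0.71, -0.34 and -0.40 in the wild-type, with 0.019 between the nearest arrays of the strains. The change on that scale was 0.27 ± 0.19 (SE, adjusted p 0.764). The probes differed within the group: Lys1y had a log2 change of 0.49 and Lys2y of -0.019 on the standards scale (SE 0.47 each). Lys1y was at 172.3%, 60.5% and 81.7% in Not1 depleted cells, against 63.2%, 120.5% and 40.2% in the wild-type.

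The mIle group, which passed the overlap rule with the smallest change, was at 129.3%, 96.0% and 100.4% in Not1 depleted cells, against 124.7%, 107.6% and 64.8% in the wild-type. Relative to the array it was at 0.34, 0.57 and 0.37 in the Not1 depleted replicates and 0.23, 0.12 and 0.32 in the wild-type, a change of 0.21 ± 0.18 (SE, adjusted p 0.764). These spots were as dim as those of mCys, with a median Atto foreground of 57 to 125, or 1.78 to 4.63 times the background. With plain subtraction the change was -0.50 against the standards and 0.0016 relative to the array, and with an offset of 0 it was -0.30 and 0.043. Isoleucine has a class I synthetase, and the unprefixed Ile group had a change of 0.24 ± 0.21 on the same scale, with overlapping arrays.

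The lowest log2 change was that of the m-prefixed tryptophan group, which did not pass the test with the normexp correction. Against the standards it was -0.45, between -0.77 without wild-type replicate 3 and -0.16 without wild-type replicate 1, and -0.97 with plain subtraction (adjusted p 0.035, called). mTrp was at 93.7%, 67.6% and 76.9% in Not1 depleted cells, against 161.2%, 110.9% and 70.0% in the wild-type. The means were 79.4 ± 13.2% and 114.0 ± 45.7% (SD, n = 3 each, exact p = 0.3). Relative to the array its log2 values were -0.12, 0.059 and -0.012 in Not1 depleted replicates, against 0.60, 0.16 and 0.43 in the wild-type, so that every Not1 depleted array lay below every wild-type array. The change was -0.42 ± 0.19 (SE), with a limma p of 0.046 and an adjusted p of 0.764, and with plain subtraction it was -0.47 on this scale (adjusted p 0.462). In the separate channels the change was 0.46 for Cy3 and 1.39 for Atto (adjusted p 0.673 for Atto). The median Atto foreground of mTrp spots was 190 on wild-type replicate 3 and between 555 and 1210 on the other arrays. The unprefixed Trp group had a relative change of 0.0075 ± 0.22.

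**Figure D3:**
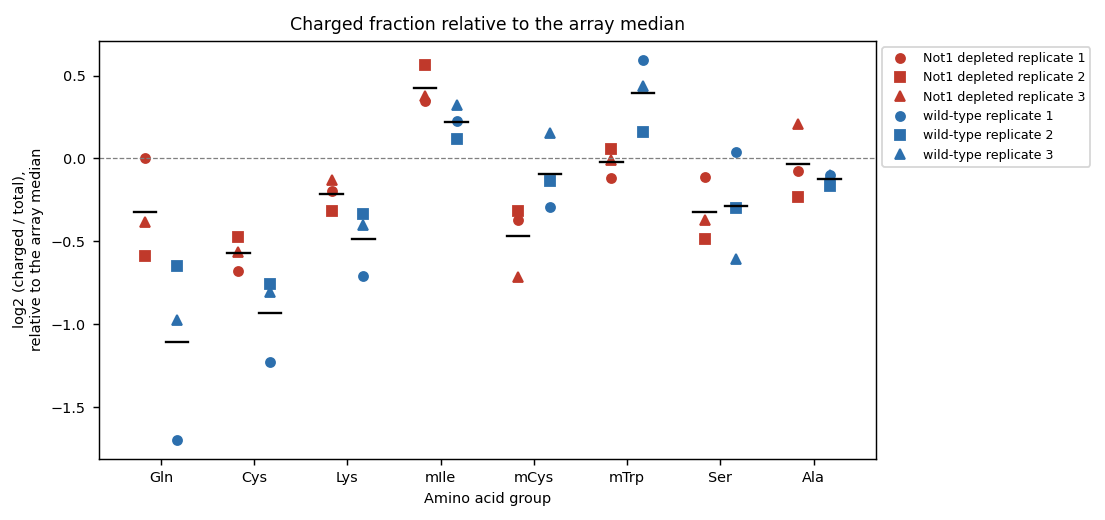
Log2 ratio of charged to total tRNA relative to the median of the array over all probes, for the 6 groups without overlap and for Ser and Ala. Points are the Not1 depleted (red, left) and wild-type (blue, right) arrays and black bars their means; Gln has the widest gap between the means and the widest wild-type spread.

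Tyr, Val and Asp completed the 5 unprefixed groups and mPro the 3 m-prefixed groups with the largest changes against the standards, and their arrays overlapped on both scales. Tyrosine, a class I amino acid, was charged to 13.7%, 20.6% and 14.2% in Not1 depleted cells, against 22.7%, 28.7% and 15.4% in the wild-type (log2 change -0.44 ± 0.43 SE, exact p = 0.2). With an array left out the change of Tyr lay between -0.68 (without wild-type replicate 3) and -0.23 (without wild-type replicate 2). Aspartate, a class II amino acid, was at 31.7%, 49.3% and 43.2% in Not1 depleted cells, against 57.6%, 58.2% and 35.3% in the wild-type (-0.27 ± 0.43, between -0.51 without wild-type replicate 3 and -0.091 without Not1 depleted replicate 1). Of their wild-type arrays, replicate 3 lay within the range of the Not1 depleted arrays in each case. The mPro group was at 23.7%, 31.1% and 20.6% in Not1 depleted cells, against 30.6%, 38.6% and 28.9% in the wild-type (-0.39 ± 0.43, exact p = 0.3).

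Valine, a branched-chain amino acid, was at 123.7%, 72.0% and 98.9% in Not1 depleted cells, against 93.6%, 114.0% and 44.4% in the wild-type (0.30 ± 0.43). Among its probes Val1y had a log2 change of 0.72, Val2y of 0.15 and Val3y of 0.023, the widest range within an unprefixed amino acid. Val1y was at 95.1%, 64.3% and 82.4% in Not1 depleted cells, against 59.4%, 69.5% and 27.3% in the wild-type. Only Not1 depleted replicate 2 lay below the highest wild-type array. Tested by probe, 0 of the 64 probes were called lower and 0 higher on the standards scale (0% each, adjusted p 0.994 for every probe).

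Relative to the array median, 0 of the 64 probes were again called in either direction (0% each). Val1y was then at -0.098, -0.014 and 0.088 in Not1 depleted replicates, against -0.84, -0.51 and -0.92 in the wild-type replicates. The strains did not overlap in Val1y, and the change was 0.75 ± 0.21 (SE, limma adjusted p 0.220, exact p 0.1). On this scale 4 probes were without overlap above the wild-type (6.25%), which were Val1y, Gln1y, Cys1y and mIle1y. There were 2 below it (3.12%), mCys1y and mTrp1y. Except for Val1y, each of these is the only probe of its group and repeats the values of that group. This fit by probe was added after the values had been seen.

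Serine and alanine, which the study asked about, were both near the middle. The paper reports that some charged serine isoacceptors fell markedly after Not1 depletion. Its arrays were processed in another way, and its isoacceptors were not matched to the probes here. Serine was charged to 94.1%, 46.3% and 59.8% in Not1 depleted cells, against 109.5%, 80.6% and 34.0% in the wild-type (66.7 ± 24.6% and 74.7 ± 38.1%, exact p = 1). Its log2 change was -0.068 ± 0.43 against the standards, with a 95% interval of -0.92 to 0.78. Relative to the array it was -0.036 ± 0.21, with an interval of -0.50 to 0.43. A fall or rise within these intervals could not be told from 0, so a marked fall was not excluded on the standards scale. Alanine, made from pyruvate, was at 96.5%, 55.2% and 89.6% in Not1 depleted cells and 99.6%, 88.3% and 48.2% in the wild-type (80.4 ± 22.2% and 78.7 ± 27.0%, exact p = 0.8). Its relative change was 0.089 ± 0.19 (SE), with an interval of -0.32 to 0.50. For both amino acids the arrays of the strains overlapped throughout.

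The probes of serine and alanine were also taken singly. The 3 Ser probes had log2 changes from -0.18 (Ser3y) to 0.023 (Ser2y). Ser3y was at 74.1%, 61.0% and 68.6% in Not1 depleted cells, against 117.4%, 90.6% and 42.8% in the wild-type. All its Not1 depleted arrays lay below wild-type replicates 1 and 2 and above replicate 3. Ser1y was at 69.7%, 29.6% and 37.6%, against 72.8%, 52.9% and 22.0%. Ser2y was at 161.5%, 55.0% and 83.0%, against 153.6%, 109.3% and 41.9%. Ala1y had a change of -0.14 and Ala2y of 0.25. Among the other amino acids with several probes, the changes ranged from -0.16 to 0.42 for the 4 Leu probes, from -0.042 to 0.42 for the 3 Gly probes and from -0.098 to 0.35 for the 4 Arg probes. None of these probes passed the test.

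Neither synthetase class held a group that passed the test with the normexp correction. The groups called under plain subtraction, mArg, mCys, mMet and mTrp, were all of class I. Class I covered 10 unprefixed groups, of which 7 were above 0 and 3 below, with a median log2 change of 0.057 against 0.048 for all 20 unprefixed groups. Besides Gln, Cys, Val and Tyr it held Ile (0.21), Leu (0.060), Arg (0.054), Met (0.021), Trp (-0.025) and Glu (-0.21). The 10 class II groups had 6 above 0 and 4 below, with a median of 0.027. Besides Lys, Ala, Ser and Asp these were Gly (0.17), Thr (0.17), Pro (0.041), Asn (0.012), Phe (-0.011) and His (-0.22). The Met group rests on the probes Met1h and Met2h, whose suffix h is also that of the human standards, so that which Met tRNA they capture is uncertain.

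The m-prefixed groups had a median of -0.068, with 9 above 0 and 11 below. In class I the median was -0.16 and the changes were 0.32 for mLeu, 0.17 for mIle, 0.13 for mVal, 0.0034 for mGln, -0.13 for mMet, -0.20 for mArg and mTyr, -0.26 for mGlu, -0.41 for mCys and -0.45 for mTrp. In class II the median was -0.0085, with 0.22 for mAla, 0.19 for mGly and mLys, 0.13 for mPhe, 0.043 for mAsp, -0.060 for mThr, -0.076 for mAsn, -0.094 for mSer, -0.27 for mHis and -0.39 for mPro. All of these had the standard error of 0.43, and 0 were called with the normexp correction. The median charged fraction of m-prefixed probes was 81.9 ± 13.3% in Not1 depleted cells and 89.5 ± 24.4% in the wild-type, and that of unprefixed probes was 86.3 ± 30.5% and 79.8 ± 31.8% (exact p = 0.8 each).

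Amino acids that share a biosynthetic precursor were also set side by side. The pyruvate family (Ala, Val, Leu) had all 3 unprefixed and all 3 m-prefixed groups above 0, with medians of 0.060 and 0.22, but under plain subtraction all 6 were below 0, and Ala and Leu also with an offset of 0, no background correction, the mean foreground or spots lit in both channels. The 3-phosphoglycerate family, which contains serine with Gly and Cys, had 2 of 3 unprefixed groups above 0 (median 0.17) and 1 of 3 m-prefixed groups (median -0.094). For the oxoglutarate family (Glu, Gln, Pro, Arg and, by the fungal pathway, Lys) 4 of 5 unprefixed groups were above 0 (median 0.054) and 2 of 5 m-prefixed groups (median -0.20). The oxaloacetate family (Asp, Asn, Met, Thr, Ile) likewise had 4 of 5 unprefixed groups (median 0.021) and 2 of 5 m-prefixed groups (median -0.060) above 0. The 3 unprefixed aromatic groups had a median of -0.025 with all below 0 against the standards, and a median of 0.0075 with 2 of 3 above 0 relative to the array, and the m-prefixed ones had 1 of 3 above 0 on both scales. His and mHis were below 0. No member of any family was called with the normexp correction, and the families hold too few groups to be read as a pattern.

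**Figure D4:**
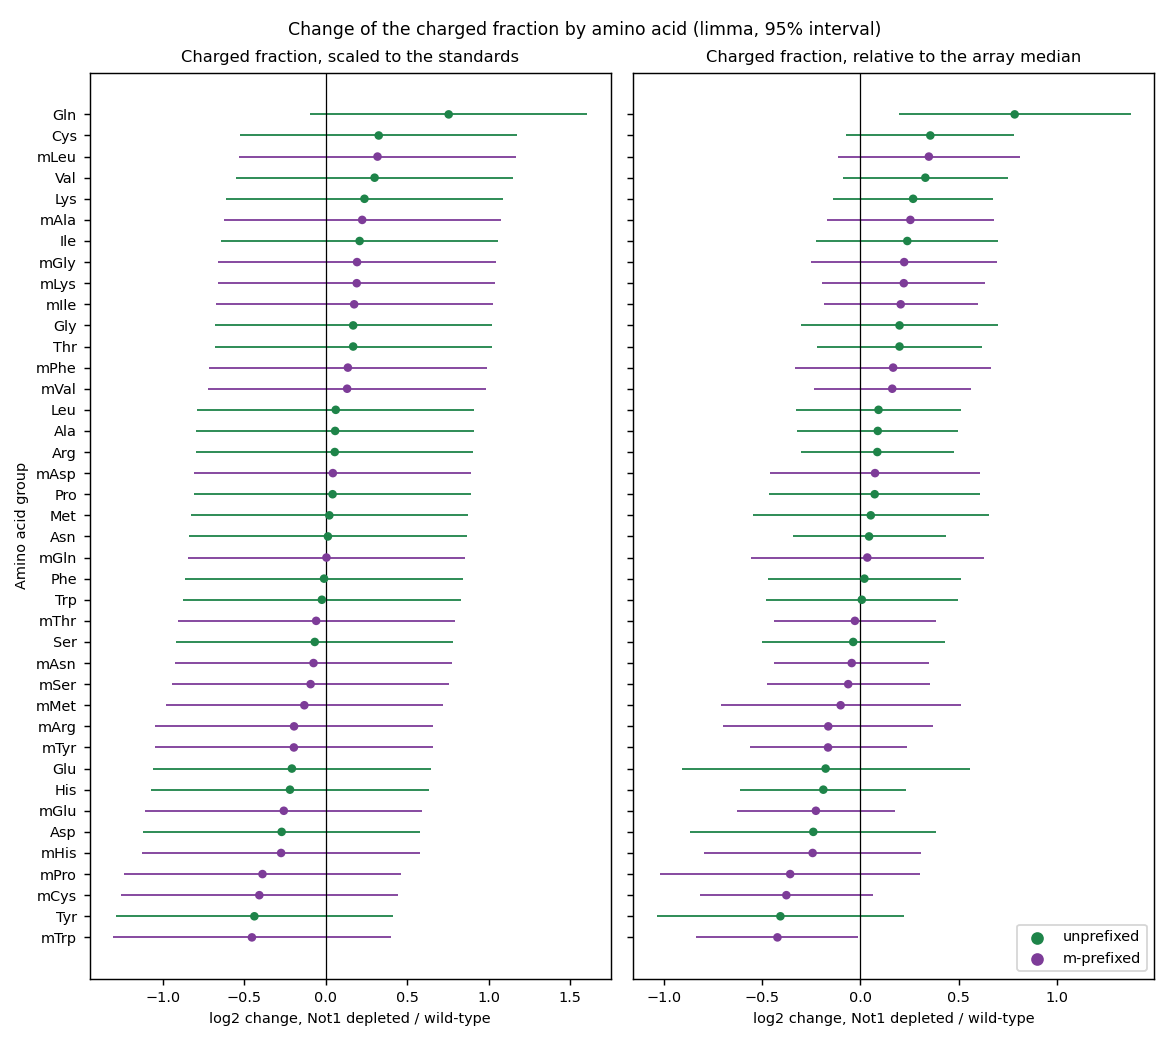
Log2 change of the charged fraction, Not1 depleted over wild-type, with its 95% interval from limma for the 40 amino acid groups, scaled to the standards (left) and relative to the array median (right). On the left every interval crosses 0; on the right those of Gln and mTrp do not, at adjusted p values of 0.541 and 0.764.

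Charged and total tRNA were also compared as single channels, each relative to the standards. In Cy3 0 groups were called in either direction (0%) and the strains overlapped in all 40, with a standard error of 1.00. In Atto 0 groups were called (0%), with a standard error of 0.60. The 3 groups without overlap in Atto (7.5%) were mArg, mMet and mPhe, all higher in Not1 depleted cells, and they were the dimmest groups on the arrays, with a lowest median foreground of 46, 33 and 41. All 20 m-prefixed groups had an Atto change above 0 (0.25 to 1.39, median 0.70), against 8 of 20 unprefixed groups (-0.79 to 0.31, median -0.076), and 15 of 20 against 0 of 20 without scaling. In Cy3 13 of 20 m-prefixed and 0 of 20 unprefixed groups were above 0, and without Ser3h 20 and 12. The difference between the kinds of name was not tested, nor was how far it rests on wild-type replicate 3. On that array the median Atto foreground of mGln, mGly and mPro was 735, 270 and 3264, their lowest. In others, such as mAla, mSer and mThr, it was not the lowest. For Gly and Pro it was 2357.5 and 4199, their highest, though for Gln it was not the highest. The Cy3 change was -0.46 for Ser and -0.23 for Ala, and the Atto change was 0.091 for Ser and 0.20 for Ala.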

How the data were processed

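The deposited tables hold the foreground and background fluorescence intensity of each spot in the Atto and the Cy3 channel, as the authors' image software gave them, together with the percent of pixels above background (the unit other covers both); the authors' normalization to standards is not in the deposited values. Spots lay in 12 blocks of 11 rows by 11 columns. Names of rows 6 to 8 were taken from the row above and row 5 was dropped: positions of one name then differed with an SD of 0.27, against 0.45 as deposited, and 93.1% of blank spots were empty, against 67.8%. Median intensities were corrected by normexp (offset 50, limma 3.58.1, R 4.3.3). A spot counted as lit where at least 50% of its pixels exceeded the background by 2 SD in either channel. Log2 (Cy3/Atto) of lit spots was scaled to the median of the standards (EcTyr2, also spelled E.c. Tyr-2, EcLys2, His1h, Ser3h), averaged by probe and then by amino acid, and fitted with lmFit and eBayes. The fit takes groups as independent, but an array-wide shift acts on all of them. The percent charged is this ratio with the standards at 100. The fits were tested on simulated data.

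Every group is named with its change; per-array values are given for groups called or without overlap, the 5 unprefixed and 3 m-prefixed groups with the largest changes, and Ser and Ala. The members, lists and rules were chosen with earlier results of these data known. Alternatives changed the background correction, scaling, spot filters, averaging, names, foreground, saturated spots, variance model, replicate block and arrays. The abundance arrays were not used here. No scan batch was given in the sources used here. Arrays have no count depth, and their number limits precision. Python 3.11.15, pandas 2.3.3 and matplotlib 3.10.9 drew the plots.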

Additional observations from a re-analysis of the deposited data

Results flagged for a closer look

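The spots of row 5 of the blocks, left without names and used in no comparison, carried signal: a median of 90.5% of them were lit per charging array (between 87.9% and 90.9%), against a median of 6.94% of the named blanks (0 to 35.2%). Which tRNAs they measured was not worked out.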

How the results depend on the processing

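On the standards scale the counts of calls changed under plain background subtraction alone, which called 4 groups lower (mArg -1.01, mCys -1.25, mMet -1.20 and mTrp -0.97, adjusted p 0.031, 0.0065, 0.0065 and 0.035) and 4 probes lower (mArg1y, mCys1y, mMet1y, mMet2y). The median over all groups was then -0.45, against 0.017, while relative to the array 0 groups were called (lowest adjusted p 0.432). The cause was not tested. Of the groups called, mMet and mArg had an Atto foreground of only 1.15 to 1.62 and 1.63 to 2.65 times the background. That of mCys was 1.73 to 4.26 times and that of mTrp 5.70 to 45.0 times the background. For mMet as few as 17 of 36 spots were lit on an array. Relative to the array, the count of groups higher was 0 to 1 with each array left out in turn. The difference in median charged fraction was 6.93 percentage points with all spots kept and 1.80 without Ser3h, and -21.5 to 5.95 with each array left out. Of 1158 single changes under the alternatives, 993 kept direction and call, 160 changed sign and 5 gained a call.

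Single log2 changes turned sign as follows. Plain subtraction gave mPhe -0.86, mAsp -0.51, mIle -0.50, mGln -0.45, Asn -0.44, Pro -0.42, Met -0.40, Arg -0.38, Leu -0.37, Ala -0.36, mLys -0.31, Thr -0.29, Gly -0.28, mGly -0.26, mVal -0.24, Lys -0.21, Ile -0.20, mAla -0.13, mLeu -0.12, Cys -0.11 and Val -0.10. An offset of 0 gave mPhe -0.57, mAsp -0.33, mIle -0.30, mGln -0.27, Asn -0.26, Pro -0.25, Met -0.22, Arg -0.21, Leu -0.19, Ala -0.19, mLys -0.14, Thr -0.11, Gly -0.10, mGly -0.10, mVal -0.088, Ile -0.035 and Lys -0.034, and relative Ser 0.022. The mean foreground gave mGln -0.19, Met -0.18, Asn -0.16, mAsp -0.14, Leu -0.14, Pro -0.13, Ala -0.13, Arg -0.12, mVal -0.043, mPhe -0.037, mLys -0.035, Thr -0.033, mGly -0.032 and Gly -0.024. No background correction gave mAsp -0.13, mGln -0.12, Asn -0.10, mPhe -0.079, Met -0.079, Pro -0.074, Arg -0.056, Ala -0.046 and Leu -0.035. Spots lit in both channels gave mGln -0.15, Met -0.13, Asn -0.12, mAsp -0.11, Pro -0.10, Ala -0.10, Arg -0.10, Leu -0.085 and mPhe -0.068. Without Ser3h, mSer was 0.0070, mAsn 0.025, Ser 0.032, mThr 0.041, Trp 0.076 and Phe 0.089. All spots kept gave Phe 0.024, mSer 0.039 and Trp 0.080. Names as deposited gave Met -0.036, mGln -0.0056, Phe 0.019 and Ser 0.045, and relative Ser 0.052. No scaling gave mGln -0.031, Asn -0.022 and Met -0.013. Scaling to all probes gave Trp 0.0075 and Phe 0.021, the median of spots Trp 0.014 and Phe 0.045, the median over probes Arg -0.090, and leaving out dim probes mThr 0.0033.

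With each array left out in turn, the changes whose sign turned ranged over Ala -0.26 to 0.31, Arg -0.28 to 0.26, Asn -0.37 to 0.25, Glu -0.37 to 0.028, Gly -0.28 to 0.49, Ile -0.10 to 0.53, Leu -0.34 to 0.32, Lys -0.053 to 0.45, mAla -0.12 to 0.51, mArg -0.37 to 0.014, mAsn -0.46 to 0.20, mAsp -0.43 to 0.43, Met -0.45 to 0.39, mGln -0.14 to 0.21, mGly -0.14 to 0.46, mIle -0.11 to 0.37, mLeu -0.045 to 0.60, mLys -0.24 to 0.43, mMet -0.29 to 0.10, mPhe -0.022 to 0.36, mSer -0.46 to 0.20, mThr -0.28 to 0.055, mTyr -0.54 to 0.044, mVal -0.22 to 0.36, Phe -0.45 to 0.32, Pro -0.34 to 0.37, Ser -0.56 to 0.29, Thr -0.23 to 0.43, Trp -0.43 to 0.29 and Val -0.11 to 0.57. On the relative scale Ala ranged from -0.033 to 0.19, Asp from -0.53 to 0.12 and Ser from -0.19 to 0.13.

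Same-numbered arrays of the strains deviated together at r = 0.087, -0.61 and -0.059. Among the other pairs, Not1 depleted replicate 2 with wild-type replicate 3 gave 0.78. Not1 depleted replicate 1 gave 0.57 with wild-type replicate 2 and -0.70 with wild-type replicate 3. The deviations are from means of 3 arrays, so they cannot decide whether the numbers pair the arrays. With the replicate block 0 groups were called in either direction, the standard error was 0.42 and the lowest adjusted p relative to the array was 0.438.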
